A study of Mus musculus with 3 samples.

Results

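The LT-HSCs, rare bone marrow stem cells with lasting capacity to form blood, were divided here by whether the chromatin of Gata1 gave at least 1 accessible fragment. Gata1-open cells were selected on that count alone: they had 1 or more ATAC fragments that overlapped the Gata1 gene body or the 2 kb upstream of it. Of 3629 cells with 10 or more antibody tags, 780 were Gata1-open, which is 21.5% (95% interval 20.2 to 22.9). The 2849 cells without such a fragment were Gata1-closed, and 780 of them were drawn to match the open cells in deciles of ATAC fragments per cell. All open and closed cells came from the same pool of wild-type C57BL/6 females (C57BL/6J in the study's methods) aged 24 months, carried no transgene or treatment, and differed by no label. The study profiled them by DOGMA-seq, which reads accessible chromatin, RNA and surface proteins (through antibody tags) together in single cells, to examine markers of platelet-biased (PLT) and multi-lineage (MUL) HSCs. There was 1 library per assay, so cells are not replicates and no test was run. Intervals are exact 95% intervals that cover counting error only, not the spread between cells or mice.

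GATA1 is the transcription factor that drives red blood cell and megakaryocyte development, and it also acts in mast cells, basophils and eosinophils. It binds the core letters GATA, works with the cofactor FOG1 (encoded by Zfpm1) and with the TAL1, LMO2 and LDB1 complex, and takes over sites held by GATA2 as stem cells differentiate. Its own gene lies on the X chromosome and is controlled by an upstream enhancer and by GATA sites near the hematopoietic promoter. ATAC reads DNA that the transposase can reach, so a fragment marks accessible chromatin and not transcription.

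The fragments that defined open cells lay mainly at an upstream enhancer region and at the promoter. Gata1 (ENSMUSG00000031162.14) spans chrX:7959260-7978071 of mm10 on the minus strand, and its hematopoietic transcript starts at 7967910. Fragment ends were densest around 7971484, upstream of that start, where a 200 bp stretch held 342 ends and stood at 17.3 times the mean of the window. The next center was at 7968439, nearer to the start, with 102 ends. Both lie in an intron of a longer annotated Gata1 transcript, outside its exons. The 300 bases around each center are shown because they hold the densest signal, written 5′ to 3′ on the gene's strand, with capitals for the GATA motif on either strand, which is GATA with A or T before it and A or G after it.
Upstream enhancer, chrX:7971334-7971633, minus strand: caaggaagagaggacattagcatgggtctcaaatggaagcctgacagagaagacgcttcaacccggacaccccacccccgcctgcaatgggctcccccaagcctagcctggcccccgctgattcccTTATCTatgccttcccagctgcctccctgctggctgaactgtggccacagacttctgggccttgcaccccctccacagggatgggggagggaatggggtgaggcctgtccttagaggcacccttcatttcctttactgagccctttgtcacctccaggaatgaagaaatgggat
Promoter, chrX:7968289-7968588, minus strand: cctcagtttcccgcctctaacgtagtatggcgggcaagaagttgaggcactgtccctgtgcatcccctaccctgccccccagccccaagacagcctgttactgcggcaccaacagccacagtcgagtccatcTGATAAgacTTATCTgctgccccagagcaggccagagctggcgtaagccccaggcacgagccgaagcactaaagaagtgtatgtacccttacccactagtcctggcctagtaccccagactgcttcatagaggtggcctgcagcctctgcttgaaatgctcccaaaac

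The enhancer sequence held 1 GATA motif and the promoter sequence held 2 on opposite strands. Among 32851 RefSeq promoters of the same length (GRCm38.p6, 250 bases before to 50 after the start), 29.8% held at least 1 such motif and 7.77% held 2 or more. Both printed sequences lie further upstream of the Gata1 start than that window, so the shares are for sequence of the same length at another position. A match of letters is a description and not a measured binding site.

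**Figure D1:**
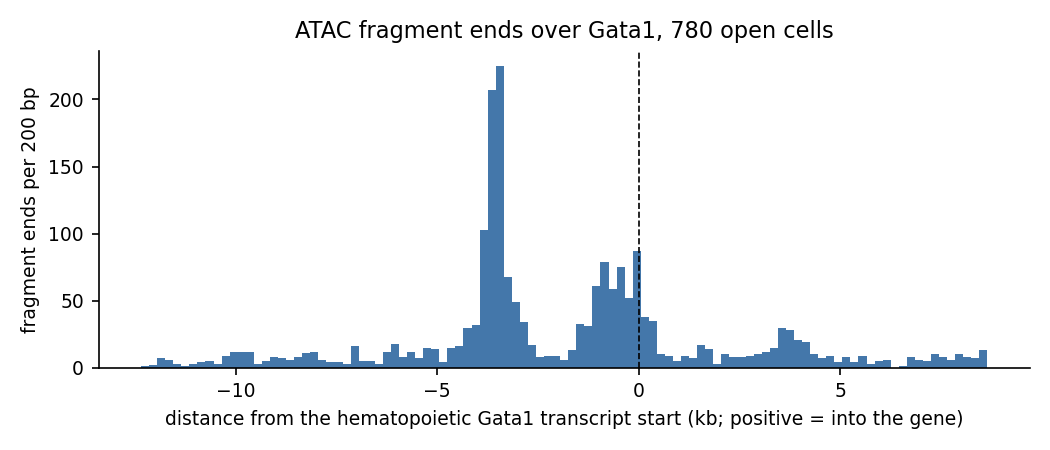
ATAC fragment ends per 200 bp (vertical axis) by distance in kb from the hematopoietic Gata1 transcript start (horizontal axis; positive values run into the gene), summed over the 780 Gata1-open cells. The tallest bars lie around 3.5 kb upstream, and a broader group of bars lies just upstream of the start, marked by the dashed line.

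The 1032 fragments over Gata1 were spread thinly, so most open cells rested on a single fragment. These values chose the members and are given as a description. There were 590 cells with 1 fragment, 145 with 2 and 45 with 3 or more, and the highest count was 6, in 1 cell. Just outside the threshold were the 2849 cells with 0. Had the same fragments fallen on cells in proportion to depth, 757 cells would have had 1, 115 would have had 2 and 14.4 would have had 3 or more. Fewer cells than that had 1 fragment, and more had 2 or more. A cell called closed may have held accessible Gata1 chromatin that was not sampled.

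By position of their midpoints, 406 fragments (39.3%) lay 2.5 to 5 kb upstream of the start, in the enhancer band, and marked 337 cells. The promoter band, from 2.5 kb upstream to 0.5 kb into the gene, held 294 fragments in 258 cells. Further into the gene lay 197 fragments in 187 cells, and more than 5 kb upstream lay 135 in 128 cells. Few cells were marked at more than 1 band (121), and 45 had fragments at both enhancer and promoter. Fragments over Gata1 had a median length of 223 bp against 205 bp for all fragments of kept cells. Those further into the gene were longest, with a median of 293 bp. The median was 5 read pairs per fragment for Gata1 and for all fragments, and 17.7% of Gata1 fragments against 14.5% of all fragments rested on a single pair.

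Open cells were deeper than closed cells before matching, and the share of open cells rose from 12.7% in the shallowest decile to 47.9% in the deepest. After matching, the median was 11394 ATAC fragments in open and 11323 in closed cells, with ranges of 4086 to 45151 and 3961 to 29140. The means were 12249 and 11849, so open cells remained slightly deeper. Fragments in peak regions made up a median of 66.4% in open and 66.9% in closed cells. Cells with an excess of sites covered by 3 or more overlapping fragments, which can mark doublets or replicating cells, numbered 124 (15.9%, 13.4 to 18.7) among open and 117 among closed cells. The excess was called without scaling for depth, so it also picks deep cells. Leaving such cells out lowered the mean nuclear fragments of open cells from 12231.5 to 10703.1, near the 10722.9 without the deepest 5% of cells. All 3629 barcodes had counts in all 3 libraries.

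In tags per cell, the surface marker that differed most was CD274, the immune checkpoint ligand PD-L1 and one of the markers the study set high on PLT-HSCs. On the log2 scale the rarer CD201 and MERTK differed more. Gata1-open cells carried fewer CD274 tags than matched closed cells. Every cell of both groups had a CD274 tag. The median was 17 tags per open cell (quartiles 11 and 25, highest 98) and 20 per closed cell (quartiles 13 and 29, highest 110), so the groups overlapped widely. The mean was 19.9 (19.6 to 20.2) in open and 22.5 (22.1 to 22.8) in closed cells, a log2 ratio of -0.17 (-0.21 to -0.14). The standard deviation over cells was 12.3 and 13.1 tags, several times the difference of the means.

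The lower CD274 level was seen at nearly all depths. Among the 78 pairs with 50 or more antibody tags the log2 ratio was -0.02 (-0.08 to 0.05). CD274 gave most tags, 15524 of 23694 in open and 17516 of 25900 in closed cells. That cut therefore selects cells largely on CD274 and cannot show whether the difference was absent there. In 9 of the 10 deciles of ATAC fragments the mean was lower in open than in all closed cells of that decile. In the shallowest decile it was 17.4 against 21.7 tags, and in the deepest 23.7 against 27.1. The exception was the fifth decile, with 20.8 against 20.3.

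CD274 also fell in steps with the number of Gata1 fragments, which the rule did not use beyond the first. The mean was 21.7 tags (21.5 to 21.8) in cells with 0 fragments, 20.8 (20.5 to 21.2) with 1, 17.5 (16.8 to 18.2) with 2 and 15.4 (14.3 to 16.6) with 3 or more. Median depth went the other way, from 10061 ATAC fragments in cells with 0 to 15090 in cells with 3 or more. Against closed cells of matched depth, the log2 ratio was -0.08 (-0.12 to -0.05) for cells with exactly 1 fragment and -0.48 (-0.55 to -0.42) for the 190 cells with 2 or more. Those 190 cells remained deeper than their closed cells, with means of 13841.7 and 13042.9 nuclear fragments.

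**Figure D2:**
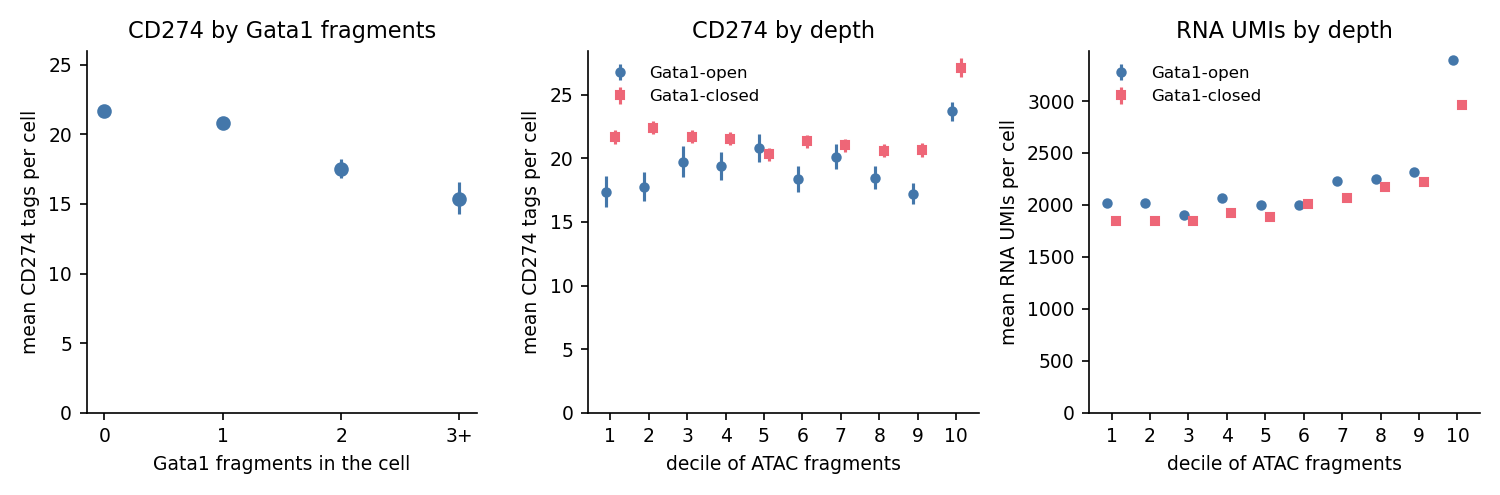
Left, mean CD274 tags per cell (vertical axis) by the number of Gata1 fragments in the cell; center and right, mean CD274 tags and mean RNA UMIs per cell by decile of ATAC fragments, for Gata1-open cells (blue circles) and all Gata1-closed cells of the decile (red squares), with 95% counting intervals. CD274 runs from 21.7 with 0 fragments to 15.4 with 3 or more and is lower in open cells in 9 of 10 deciles, while RNA UMIs are higher in open cells in 9 of 10.

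CD274 moved with the share of fragments in peak regions. Over the tertiles of the share of fragments in peak regions, open cells had a mean of 17.4 CD274 tags (16.9 to 17.8) in the lowest, 21.4 (20.8 to 22.0) in the middle and 23.4 (22.7 to 24.1) in the highest tertile. The depth-matched closed cells had 18.8 (18.3 to 19.3), 24.1 (23.5 to 24.7) and 25.8 (25.2 to 26.5), above the open cells in each. All closed cells, which were shallower, had 18.6, 22.2 and 23.7. The lowest tertile held 372 of the 780 open cells and 838 of the 2849 closed cells. When closed cells were matched on depth and on this share together, the CD274 log2 ratio shrank to -0.08 (-0.11 to -0.05). In cells with 2 or more Gata1 fragments it stayed at -0.38 (-0.45 to -0.32) under the same matching. The part of the share in the result was not tested further.

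CD201 (EPCR), a receptor that marks stem cells at high purity, was also lower in open cells, from far fewer tags. Its mean was 0.350 (0.310 to 0.394) in open and 0.465 (0.419 to 0.516) in closed cells, a log2 ratio of -0.41 (-0.64 to -0.18). At least 1 CD201 tag was seen in 28.2% (25.1 to 31.5) of open and 32.6% (29.3 to 36.0) of closed cells. The mean was lower in open cells in 7 of 10 deciles and higher in 2. With matching on the peak-region share the CD201 ratio was -0.21 (-0.45 to 0.03), and without cells of excess overlaps it was -0.17 (-0.43 to 0.10), so both intervals then held 0.

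MERTK, a receptor tyrosine kinase for the uptake of dying cells, was higher in open cells when matched on depth alone. The mean was 0.826 (0.763 to 0.892) in open and 0.694 (0.636 to 0.755) in closed cells, a log2 ratio of 0.25 (0.08 to 0.42). Tagged cells made up 44.5% (41.0 to 48.1) of open and 39.1% (35.7 to 42.6) of closed cells, and the mean was higher in open cells in 8 of 10 deciles. Cells with 2 or more Gata1 fragments gave a log2 ratio of 0.31 (-0.01 to 0.64), and cells with exactly 1 gave 0.003 (-0.19 to 0.19). Each of these was set against its own draw of closed cells. Without matching, mean MERTK was 0.700 (0.670 to 0.732) in cells with 0 fragments and 0.786 (0.717 to 0.861) with 1. It was 0.890 (0.743 to 1.06) with 2 and 1.13 (0.84 to 1.49) with 3 or more, while depth also rose. With matching on the peak-region share MERTK stood at 0.11 (-0.05 to 0.28), and without the deepest 5% of cells at 0.16 (-0.03 to 0.35), and both intervals held 0. The standard deviation over cells was 1.38 and 1.37 tags, larger than either mean, and the counting intervals do not cover this spread. The highest single cell had 13 MERTK tags among open and 16 among closed cells.

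The other markers of the study's PLT and MUL gates differed less in mean tags. CD61 (integrin beta 3), which the study set high on PLT-HSCs, had means of 3.94 and 3.99 tags in open and closed cells, a log2 ratio of -0.02 (-0.09 to 0.05). CD27, a TNF receptor family member set high on MUL-HSCs, had means of 0.954 and 0.983, with a log2 ratio of -0.04 (-0.19 to 0.10). CD357 (GITR), of the same family and side, had means of 3.18 and 3.37 and a log2 ratio of -0.08 (-0.16 to -0.01). Per sum of the other antibodies of the same cells, CD357 turned to 0.05 and CD61 to 0.12 (0.05 to 0.20), which leaves out 0. Most of that sum is CD274, which was lower in open cells, so these ratios carry the CD274 difference. Their intervals take no account of counting error in the sum. In cells with 50 or more tags CD357 was -0.55 (-0.75 to -0.36), so its value moved in both directions.

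With gates at the medians of all kept cells, the PLT gate (CD61 and CD274 high, CD357 and CD27 low) took 69 open cells (8.85%, 6.95 to 11.1) and 76 closed cells (9.74%). The MUL gate, its opposite, took 1.79% (0.98 to 2.99) and 1.54% (0.80 to 2.67). Neither share differed beyond its counting interval. Cuts at medians of tag counts set the size of these gates, and they are not the study's flow cytometry gates. The shares are therefore not its proportions of PLT- and MUL-HSCs. Read the other way, 69 of 342 PLT-gated cells (20.2%, 16.1 to 24.8) and 14 of 61 MUL-gated cells (23.0%, 13.2 to 35.5) were Gata1-open.

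For the remaining antibodies, the interval of the log2 ratio held 0 with depth matching. P2X7R, an ATP-gated channel, stood at -0.06 (-0.25 to 0.13) and CD106 (VCAM1), an adhesion protein, at -0.01 (-0.25 to 0.23). The macrophage antigens CD68, CD163 and CD206 and the chemokine receptor CD183 were rare in both groups, with means between 0.0205 and 0.124 tags per cell, and their intervals allowed changes in either direction. Other settings moved these values widely: CD163 was 1.58 (0.45 to 2.86) with 50 bins of depth, CD68 was 0.58 (0.07 to 1.10) and CD106 0.37 (0.09 to 0.65) without cells of excess overlaps, and CD106 was -0.76 (-1.37 to -0.17) in cells with 50 or more tags. Summed over the 12 antibodies, open cells had 30.4 tags (30.0 to 30.8) and closed cells 33.2 (32.8 to 33.6). Tags that matched no antibody were 4.52 (4.37 to 4.67) and 4.65 (4.50 to 4.80) per cell, a difference within their counting intervals.

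**Figure D3:**
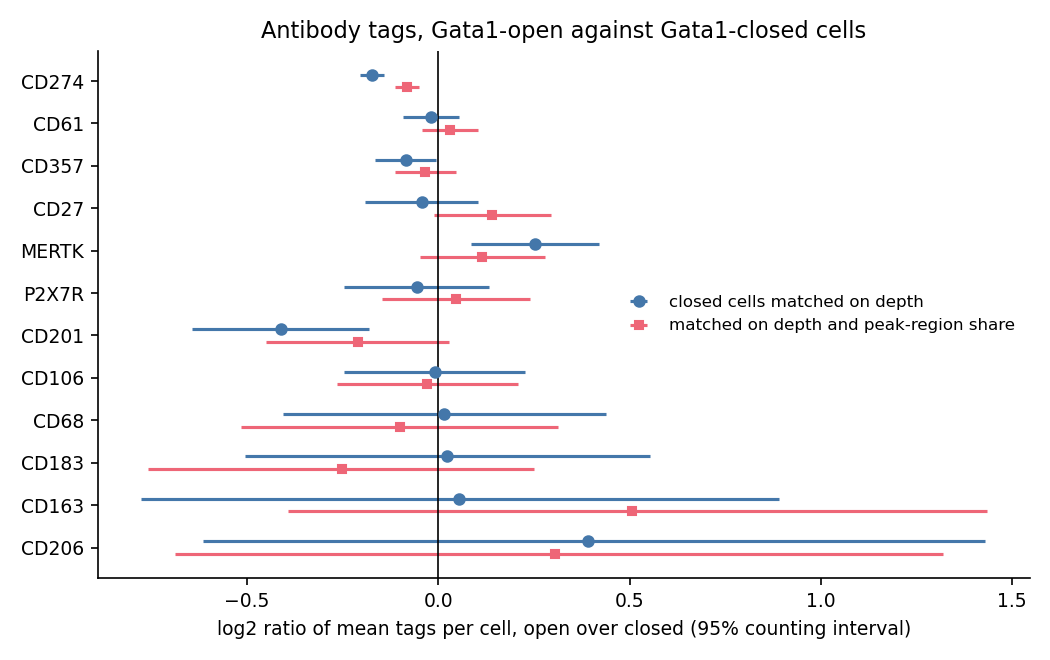
Log2 ratio of mean tags per cell in Gata1-open over Gata1-closed cells for the 12 antibodies, ordered by mean count in closed cells, with 95% counting intervals; blue circles match closed cells on depth, red squares on depth and peak-region share. CD274 and CD201 lie below 0 and MERTK above 0 with depth matching, and the share matching brings all 3 nearer to 0.

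RNA totals ran in the opposite direction to CD274. Open cells had a median of 2149 RNA UMIs (quartiles 1773 and 2727, range 941 to 7707), and closed cells had 2023 (quartiles 1679 and 2523, range 499 to 6949). The means were 2400.0 and 2218, or 8.20% higher in open cells, a log2 ratio of 0.11. The distributions overlapped almost fully, with standard deviations over cells of 951 and 827 UMIs. Genes detected had medians of 1294 and 1234.5. Open cells had more RNA in 9 of 10 deciles of ATAC depth, and the gap was widest in the deepest, at 3397 against 2963 UMIs. Without the deepest 5% of cells the log2 ratio was 0.05, and with 50 bins of depth which brought the mean depths closer, it was 0.07. Among the 78 open cells with 50 or more antibody tags it turned to -0.03.

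Exonic UMIs differed more than intronic ones, by 9.56% and 5.83% of the mean. The intronic share of UMIs had a median of 35.8% in open and 36.6% in closed cells. In cells with 3 or more Gata1 fragments the median was 2958 UMIs, against 1925 in cells with 0, without matching on depth. The RNA of single genes was not analysed here, so Gata1 transcripts themselves were not measured.

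Accessibility across the rest of the genome was nearly the same in open and closed cells. Fragments over each gene and 2 kb upstream were scaled by 9539531 nuclear fragments in open and 9229120 in closed cells, with Gata1 left out. Of 12693 genes with 500 or more fragments over both groups, 32 (0.252%) were higher in open cells by at least 0.32 on the log2 scale, the fold used here as the threshold, and 45 (0.355%) were lower by at least as much. With all closed cells weighted to the depths of the open cells, in place of 1 draw, 11 were higher and 20 lower of 12700. The median log2 ratio was 0.00, and 95% of genes lay between -0.22 and 0.21. Of 6270 genes with 1000 or more fragments, 0 passed the threshold in either direction, and of 18022 with 200 or more, 238 were higher and 244 lower. With 1 sample a group there is no test of any gene.

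The GATA partners and cofactors, the genes whose products work with or hand over to GATA1, lay on both sides of 0. All 16 had 500 or more fragments, and 0 passed the threshold in either direction, where 0.252% and 0.355% of all genes did, so the 0 is no result about them. There were 8 above and 8 below 0, beside 48.7% of all tested genes above 0, and the median was 0.00. Gata2, the stem cell GATA factor (chr6:88193891-88207032), had 1244 fragments in open and 1117 in closed cells, a log2 ratio of 0.11 (-0.01 to 0.23). Zfpm1, which encodes FOG1, stood at 0.07 (-0.01 to 0.14) from 3105 and 2866 fragments. Runx1, a core stem cell and megakaryocyte factor, stood at 0.05 (-0.02 to 0.12). These values were higher in the 190 cells with 2 or more Gata1 fragments against as many closed cells, with Gata2 at 0.29 (0.06 to 0.52), Zfpm1 at 0.20 (0.06 to 0.34) and Runx1 at 0.15 (0.01 to 0.29). There 10 of the 16 were above 0, beside 50.5% of all tested genes, and the median was 0.07. The interval lay above 0 for 4 of the 16, beside 4.35% of all tested genes, and below 0 for 0 of the 16, beside 4.32%. Over all tested genes, 95% of log2 ratios in those cells lay between -0.41 and 0.43, a range that holds the values of these 3 genes. With all open cells but those of excess overlaps, Gata2 was 0.02 and Zfpm1 0.10 (0.02 to 0.19), against 0.11 and 0.07 with them.

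In the TAL1 complex, Tal1 stood at 0.03, Lmo2 at 0.01, Lyl1 at -0.01 and Cbfa2t3 at 0.04, with intervals that held 0. Ldb1, the adaptor that joins the complex across enhancers, was the lowest of the list at -0.15 (-0.28 to -0.02) from 937 and 1009 fragments. With 50 bins of depth Ldb1 was -0.07 (-0.21 to 0.06), and without cells of excess overlaps -0.12 (-0.27 to 0.03), so the interval held 0 in both. With matching on the peak-region share it was -0.145 (-0.275 to -0.015), which leaves out 0. Spi1, which encodes the myeloid factor PU.1 that opposes GATA1, stood at -0.10 (-0.24 to 0.05). Klf1, an erythroid factor and target of GATA1, stood at -0.04 (-0.24 to 0.16), Gfi1b at 0.03 (-0.22 to 0.29) and Nfe2 at 0.00 (-0.14 to 0.14). In cells with 2 or more Gata1 fragments Gfi1b, a repressor that acts with GATA1 in erythroid and megakaryocyte cells, stood at 0.57 (0.12 to 1.05). It was the last of the 4 with an interval above 0 and lay outside the range of 95% of all tested genes there. With all open cells Gfi1b had 529 fragments over both groups, against a median of 990 over tested genes. Genes with fewer fragments pass such a range more easily. Klf1 turned to 0.19 (-0.20 to 0.59) in cells with 2 or more Gata1 fragments. With all open cells, where Gfi1b stood at 0.03, leaving out cells of excess overlaps gave -0.02. The value of 0.57 was not recalculated without those cells. Erg at -0.03, Fli1 at 0.00, Kdm1a at -0.01 and Tcf3 at -0.03 complete the list.

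Genes of the lineages that GATA1 serves had list medians near 0 in the erythroid and the megakaryocyte and platelet lists. Of 25 erythroid genes, 9 had enough fragments and 0 passed the threshold, with a median of 0.00. At the shares over all genes given above (0.252% and 0.355%), counts of 0 in this and the next lists say nothing about their genes. Aqp1, a red cell water channel, was highest at 0.22 (-0.02 to 0.47), and Tfrc, the transferrin receptor, lowest at -0.07 (-0.26 to 0.12). Of 24 megakaryocyte and platelet genes, 12 had enough fragments, 9 above and 3 below 0 beside 48.7% of all genes above, and 0 passed the threshold, with a median of 0.03. Plek, a platelet substrate of protein kinase C, stood at 0.23 (0.08 to 0.38) from 778 and 642 fragments and was the highest. It was 0.26 (0.10 to 0.41) with 50 bins of depth and 0.32 (0.02 to 0.61) in cells with 2 or more Gata1 fragments. Plek stood at 0.11 (-0.04 to 0.26) with matching on the peak-region share and -0.08 over transcript starts alone. Itgb3 and Itga2b, the 2 subunits of the platelet fibrinogen receptor, were the lowest at -0.11 (-0.24 to 0.03) and -0.07 (-0.19 to 0.04). Only 2 of 17 mast cell, basophil and eosinophil genes had enough fragments, Gata2 and Hdc, the histamine-forming enzyme, which stood at 0.17 (-0.08 to 0.42) and at -0.14 (-0.37 to 0.10) with matching on the peak-region share.

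The platelet-bias and multi-lineage lists of the study are given beside the 48.7% of all tested genes that lay above 0. These lists were chosen by the study, the longer ones from the RNA of clones, and so name RNA and not chromatin markers. Of the 4 genes of its PLT panel with enough fragments, Vwf, the platelet adhesion protein gene that marks platelet-biased HSCs, stood at 0.10 (0.01 to 0.19) from 2141 and 1937 fragments, of which the deepest open cell gave 29, and at 0.08 (-0.01 to 0.17) without that cell. With 50 bins of depth Vwf was 0.13 (0.04 to 0.22), and with matching on the peak-region share it was 0.04 (-0.05 to 0.13). In cells with 2 or more Gata1 fragments Vwf was -0.005 (-0.18 to 0.17). Pdgfc stood at -0.13, Inhba at -0.16 and Gpr4 at -0.22, and all 3 intervals held 0. For the longer clone PLT list, 41 of 67 genes had enough fragments, 15 above and 26 below 0, with a median of -0.03 and 0 past the threshold. Its highest was Cavin2, a caveolar protein gene, at 0.32 (0.15 to 0.49) from 642 and 498 fragments, just short of the threshold. In cells with 2 or more Gata1 fragments Cavin2 stood at 0.04 (-0.26 to 0.35). The clone MUL list had 38 of 62 genes with enough fragments, 18 above and 20 below 0, with a median of -0.01. It had 1 gene past the threshold, Otos, at -0.38 (-0.61 to -0.14), where 0.355% of all genes were lower by as much. Highest of that list was Dapp1, at 0.19 (0.08 to 0.29) from 1517 and 1290 fragments. Dapp1 was 0.21 (0.10 to 0.32) with matching on the peak-region share and 0.45 (0.24 to 0.67) in cells with 2 or more Gata1 fragments. The MUL panel lay between -0.15 for Flt3, a receptor of early multipotent progenitors, and 0.08 for Sec16b.

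Stem cell genes were level as a group, with 8 above and 8 below 0 among 16 genes, 0 past the threshold and a median of 0.00. Meis1, a homeobox factor of HSCs (chr11:18879817-19018985), was the highest at 0.17 (0.08 to 0.25) from 2369 and 2042 fragments. With matching on the peak-region share Meis1 was 0.07 (-0.02 to 0.15), which holds 0. Hoxa9, its partner, stood at 0.16 (-0.01 to 0.32), and Mllt3, which sustains HSC self-renewal, was the lowest at -0.09 (-0.18 to 0.01). Mllt3 was -0.10 (-0.20 to -0.01) with 50 bins of depth and -0.11 (-0.21 to -0.02) with matching on the peak-region share. In cells with 2 or more Gata1 fragments it was -0.13 (-0.31 to 0.05). Of the genes of DNA replication in S phase, 24 of 33 were above 0, beside 48.7% of all tested genes, and the median was 0.07. Rrm1, a subunit of the enzyme that makes deoxynucleotides, stood at 0.30 (0.07 to 0.53) and Mcm5, part of the replicative helicase, at 0.25 (0.05 to 0.45). Pcna, the sliding clamp, was lowest at -0.18 (-0.33 to -0.02). Rrm1 was 0.15 (-0.08 to 0.38) with 50 bins of depth, 0.21 (-0.02 to 0.43) with matching on the peak-region share and 0.12 (-0.14 to 0.38) without cells of excess overlaps, and Pcna was -0.14 (-0.31 to 0.02) with 50 bins, all with intervals that held 0. In cells with 2 or more Gata1 fragments Rrm1 was 0.50 (0.06 to 0.95) and Pcna turned to 0.12 (-0.19 to 0.44). With all open cells, 0 of the 33 passed the threshold. Mitosis genes had a median of 0.03, with 9 of 14 above 0. The S phase list median log2 was 0.02 with 50 bins of depth, 0.07 with matching on the peak-region share and 0.04 without cells of excess overlaps. It was -0.05 over the 9 genes with enough fragments when open meant a fragment within 1 kb of a Gata1 transcript start.

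Of the markers of other blood and vessel cells, 7 of 17 myeloid, 2 of 12 B cell, 5 of 13 T cell and 4 of 8 endothelial genes had enough fragments. Of these, 0 passed the threshold, which at shares of 0.252% and 0.355% over all genes is no result about them. The myeloid genes were above 0 in 2 of 7, beside 48.7% of all tested genes. Prtn3, a granule protease of myeloid cells, came nearest to the threshold at -0.31 (-0.49 to -0.12), but stood at -0.11 (-0.30 to 0.08) with matching on the peak-region share, while Cebpa, the factor above it, stood at 0.09 (-0.13 to 0.31). Ebf1 and Pax5, which define B cells, stood at 0.05 and 0.03, and Bcl11b, of T cells, at -0.22 from 320 and 361 fragments. Kdr, an endothelial VEGF receptor, stood at 0.19 (-0.01 to 0.38). It was 0.27 (0.06 to 0.47) with 50 bins of depth and 0.13 (-0.06 to 0.33) with matching on the peak-region share.

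**Figure D4:**
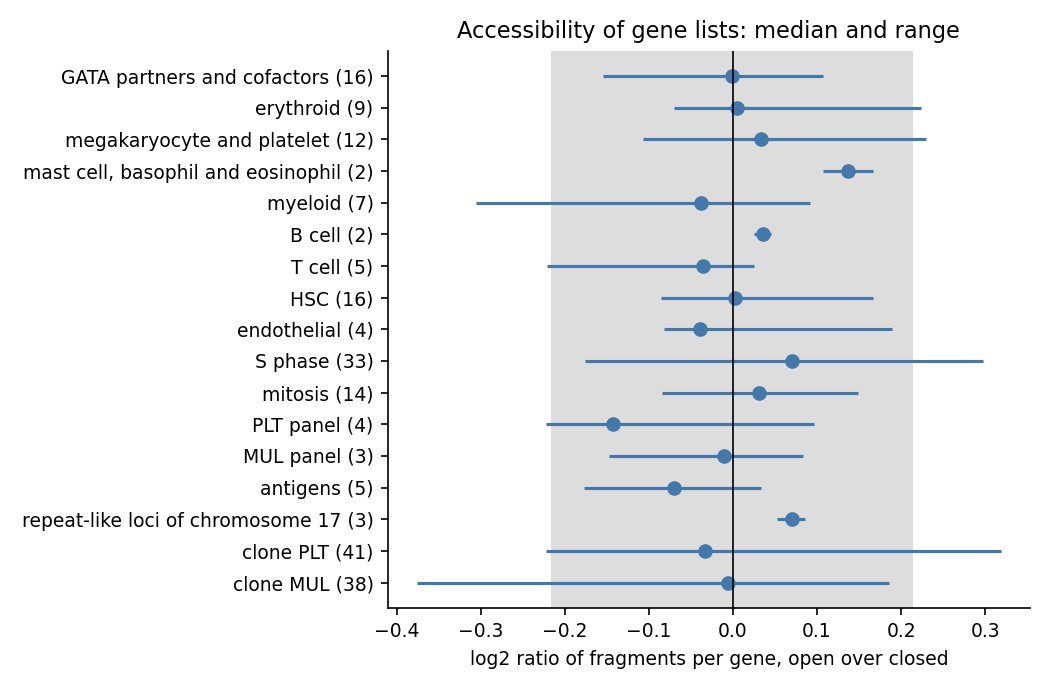
Median (point) and range (line) of the log2 ratio of fragments per gene, Gata1-open over Gata1-closed cells, for each gene list, with the number of its genes that had 500 or more fragments in parentheses; the gray band holds 95% of all 12693 genes. Every list median lies within the band, from -0.14 for the PLT panel to 0.14 for mast cell, basophil and eosinophil genes.

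At the genes encoding the antigens, Mertk ran opposite to its antibody, and Cd274 and Procr were too sparse to tell. At Cd274 (chr19:29367455-29388095) there were 319 fragments in open and 308 in closed cells, a log2 ratio of 0.00 (-0.23 to 0.23), beside fewer CD274 tags. Procr, which encodes CD201, stood at -0.15 (-0.54 to 0.24) from 109 and 117 fragments. Mertk (chr2:128698956-128802894) had 619 fragments in open and 677 in closed cells, a log2 ratio of -0.18 (-0.34 to -0.02), beside more MERTK tags. It stood at -0.13 (-0.29 to 0.03) with matching on the peak-region share and -0.28 (-0.44 to -0.12) with 50 bins of depth. In cells with 2 or more Gata1 fragments Mertk was -0.50 (-0.81 to -0.19). Only 5 of the 12 antigen genes had 500 or more fragments. Those not yet given lay between -0.46 for Vcam1, from 42 and 56 fragments, and 0.22 for Tnfrsf18, from 88 and 73, with intervals that held 0.

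Single genes at the extremes are described next. Highest by lower bound were Csmd1, Tacr1, March1, Mut, B4galnt1, Cenpq, Flrt2, Galnt16, Bola3 and Negr1. B4galnt1, which makes complex gangliosides (chr10:127165225-127172330), had 562 fragments in open and 416 in closed cells, a log2 ratio of 0.39 (0.20 to 0.57), and was seen in 46.2% and 38.1% of cells. It stood at 0.23 (0.05 to 0.41) with matching on the peak-region share. Tacr1, the substance P receptor gene, had 327 and 221 fragments, a log2 ratio of 0.52 (0.27 to 0.77), and stood at 0.22 (-0.06 to 0.51) without cells of excess overlaps. Mut, a mitochondrial mutase gene, and Cenpq, which encodes a centromere protein, are adjacent and share fragments, at 0.44 and 0.42. Without cells of excess overlaps they stood lower, at 0.27 (0.02 to 0.53) and 0.28 (0.02 to 0.54).

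For 3 of these genes a single cell mattered. The deepest cell, which was Gata1-open, had 45151 fragments with only 25.3% of them in peak regions. It gave 57 of the 388 open fragments of Csmd1, 30 of the 372 of March1 and 18 of the 376 of Negr1. Without that cell, Csmd1, a very long gene of a complement regulator, went from 0.50 (0.27 to 0.73) to 0.27 (0.04 to 0.51). March1, which encodes a ubiquitin ligase of antigen presentation, went from 0.46 to 0.34, and Negr1, a neuronal adhesion gene, from 0.38 to 0.31. Without all cells of excess overlaps, Csmd1 stood at -0.05 (-0.32 to 0.22), March1 at 0.11 (-0.16 to 0.39) and Negr1 at 0.11 (-0.16 to 0.38), and all 3 intervals held 0. The antibody values barely moved without the cell, with CD274 at -0.18.

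Lowest by upper bound were P3h4, Rcn3, Rnf39, Neu2, Tmprss6, Rp1l1 and Pcdha1, Pcdha2, Pcdha3 and Pcdha9. The Pcdha genes are protocadherins of neurons whose gene models overlap, so their values, between -0.38 and -0.36, come largely from shared fragments. Tmprss6, a protease that restrains the iron hormone hepcidin (chr15:78439667-78468634), had 671 fragments in open and 807 in closed cells, a log2 ratio of -0.31 (-0.46 to -0.16), and stood at -0.16 (-0.33 to 0.02) without the deepest 5% of cells. P3h4, which takes part in collagen modification, had 218 and 291 fragments, a log2 ratio of -0.46 (-0.72 to -0.21). These are the ends of 11004 protein-coding genes and were not tested.

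Around Gata1 itself, no neighboring gene differed beyond its counting interval, and most of these intervals were wide. Hdac6, a deacetylase gene and the nearest protein-coding gene on one side (chrX:7930120-7947889), had 1000 fragments in open and 1031 in closed cells, a log2 ratio of -0.09 (-0.22 to 0.04). Glod5, the nearest on the other side, stood at 0.18 (-0.12 to 0.48) from 204 and 174 fragments. Within 10 kb of the Gata1 window there were 106 and 92 fragments (0.16, -0.26 to 0.58), and from 10 to 50 kb the ratio was 0.00 (-0.10 to 0.10). Chromosome X as a whole had a log2 ratio of 0.03 (0.02 to 0.04), the largest of any chromosome but Y, whose 1968 and 1803 fragments gave 0.08 (-0.01 to 0.17).

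Windows of 500 bp with a GATA motif had the same median, to 2 decimals, as all windows. Of 13887 windows with 200 or more fragments over both groups, 3856 (27.8%) held the GATA motif on either strand. Their median log2 ratio was -0.01, and that of all windows was -0.01. In 4 equal classes of GC content, the median of GATA windows lay between -0.02 and 0.00, and that of all windows at -0.01 in each. The 406 windows with CTG and GATAA spaced by 7 to 9 bases, the layout bound by the TAL1 and GATA1 complex, had a median of 0.00. Each of these windows also counts as a GATA window where A or T precedes GATAA.

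Other motifs had medians between -0.03 and -0.01. Windows with the RUNX motif TGTGGT (2918) had a median of -0.01, those with the ETS motif, GGAAG with C or A before it (9330), of -0.01 and those with part of the CTCF motif (5872) of -0.01. That part was AGGGGGC in 1 form, AGGTGGC in another and AGAGGGC in the last. The 883 windows with an AP-1 motif, TGACTCA or its reverse complement, had the lowest median, -0.03, and lay at -0.04 in the class of lowest GC, where all windows lay at -0.01. In summed fragments the AP-1 windows stood at -0.03 (-0.04 to -0.02) and all windows at -0.01 (-0.01 to -0.01). A motif here is a match of letters, and windows may hold several.

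CD274 was lower in the cells marked at each of the 4 bands of Gata1. Cells with a fragment in the enhancer band had a mean of 18.8 CD274 tags against 23.0 in closed cells matched to them, a log2 ratio of -0.29 (-0.34 to -0.24). For the promoter band the means were 19.4 and 22.8, a log2 ratio of -0.24 (-0.29 to -0.18). Fragments further into the gene, where none of the strongest centers lies, marked cells with 20.1 tags against 21.5, a log2 ratio of -0.10 (-0.16 to -0.03). More than 5 kb upstream it was -0.13 (-0.21 to -0.05). The means of the closed cells drawn for the bands themselves ran from 21.0 to 23.0. The bands share cells and their closed cells overlap, so their differences from each other were not tested.

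With matching on the peak-region share as well, the enhancer band had a CD274 ratio of -0.22 (-0.27 to -0.17) and the promoter band one of -0.17 (-0.23 to -0.12). In the same matching CD274 was -0.18 (-0.26 to -0.10) for cells marked more than 5 kb upstream and -0.08 (-0.14 to -0.01) for those marked further into the gene. MERTK was highest for the enhancer band, at 0.53 (0.28 to 0.79), and stood at 0.38 (0.13 to 0.64) with that matching. For the promoter band it was 0.35 (0.06 to 0.64), and for fragments further into the gene -0.01 (-0.40 to 0.38). With the share matched these became 0.22 (-0.06 to 0.50) and -0.67 (-1.03 to -0.32), and cells marked more than 5 kb upstream went from 0.43 (0.03 to 0.83) to 0.80 (0.37 to 1.23), so MERTK moved widely with the closed cells drawn. CD201 was lowest for the promoter band, at -0.86 (-1.30 to -0.43), and -0.76 (-1.20 to -0.32) with the share matched. For the enhancer band it was -0.39 (-0.75 to -0.03) and -0.52 (-0.87 to -0.17). For the other bands the intervals held 0 in both matchings. Where open meant a fragment within 1 kb of a Gata1 transcript start, CD201 stood at -0.24 (-0.60 to 0.13). Those were 341 cells, another set than the 258 of the promoter band.

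The same rule was applied at 3 other genes, which were open in other shares of cells. These were 70.4% for Gata2, 35.7% for Klf1 and 66.2% for Hdac6, against 21.5% for Gata1. Open cells without a closed partner were left out, so the matched sets differed. Their open cells had means of 2004, 2190 and 2029 RNA UMIs, against 2400 for Gata1, so the values are not for like cells. Gata2-open cells numbered 2556, of which 1073 could be matched to closed cells, and their CD274 log2 ratio was 0.01 (-0.02 to 0.04), with means of 21.2 and 21.1 tags. Klf1-open cells numbered 1297 and gave 0.02 (-0.01 to 0.04), with means of 21.6 and 21.3. Hdac6-open cells numbered 2402, of which 1190 were matched, and gave -0.05 (-0.08 to -0.03), with means of 20.7 and 21.4. The Hdac6 interval for CD274 also leaves out 0. Some other antibodies lay further from 0 at these genes, with intervals that left out 0. CD68 stood at -0.47 (-0.81 to -0.13) for Klf1 and 0.42 (0.05 to 0.79) for Hdac6. CD357 stood at 0.10 (0.04 to 0.16) for Klf1, and CD183 at 0.43 (0.0025 to 0.87) for Hdac6. For the remaining antibodies at the 3 genes the interval held 0.

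MERTK stood at 0.11 (-0.04 to 0.26) for Gata2, -0.12 (-0.25 to 0.02) for Klf1 and -0.09 (-0.23 to 0.05) for Hdac6. CD201 lay at 0.08, 0.13 and 0.11 for the same 3 genes, with intervals that held 0, and RNA UMIs at -0.01, 0.00 and -0.02. The values come from overlapping cells and were not compared by a test. Turned around, Gata2-open cells had 276 Gata1 fragments against 232 in their closed cells, a log2 ratio of 0.23 (-0.03 to 0.48). Klf1-open cells had 415 against 392 (0.07, -0.14 to 0.27) and Hdac6-open cells 291 against 304 (-0.08, -0.32 to 0.16).

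**Figure D5:**
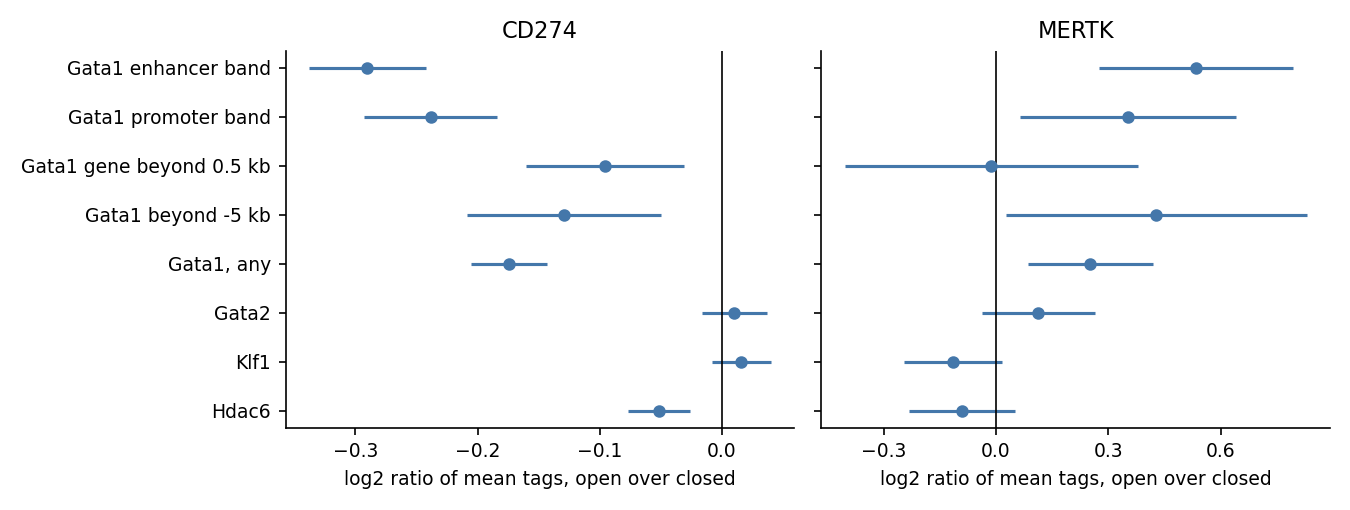
Log2 ratio of mean CD274 tags (left) and MERTK tags (right) per cell in open over depth-matched closed cells, with 95% counting intervals, for the bands of Gata1, all of Gata1, and Gata2, Klf1 and Hdac6. CD274 lies at -0.29 for the Gata1 enhancer band and between -0.05 and 0.02 for the other 3 genes, whose matched cells are not like those of Gata1.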

How the data were processed

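ATAC, RNA and antibody tags were measured in 1 library each (24-month LT-HSCs). The authors processed ATAC and RNA with Cell Ranger ARC 2.0.2 against mm10 and counted tags with CITE-seq-Count (version: not given in the sources used here). As deposited, the values are counts without normalization: fragments, RNA UMIs and genes per barcode, and tags per cell. The fragment file held 43705382 fragments, of which 88.1% lay on the nuclear chromosomes of kept cells. Of 4369 called cells, 3724 had antibody counts and 3629 had 10 or more tags. Doublets were not removed. Kept cells held 3859 to 45151 ATAC fragments each (median 10300.0), 7681722 RNA UMIs and 114345 tags in all. This depth limits gene values through counting error, given by the intervals.

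Closed cells were drawn 1 to 1 within deciles of ATAC fragments (seed 1). Genes came from GENCODE M21, and sequences from GRCm38.p6. Ratios of gene fragments had 0.5 added to each count. Intervals were exact Poisson, Clopper-Pearson or conditional binomial, and the script was tested on simulated data. Named genes were, of protein-coding genes with 500 or more fragments, 10 ranked from the top by lower bound and 10 from the bottom by upper bound, then all GATA partners and antigen genes, the highest and lowest 2 of every other list, and neighbors of Gata1. Members, lists and tests were chosen with earlier results of these data known. The 3 repeat-like loci on chromosome 17 that such results singled out stood between 0.05 and 0.09, but all 3 were below 0 with 50 bins of depth, with matching on peak share and without cells of excess overlaps. Excess overlaps were 1 kb autosomal windows with 3 or more fragments of up to 900 bp (adjusted value below 0.01), set against 1 mean for all cells without scaling for depth. Alternatives changed the matching, the definition of open, the cells kept, the antibody scale, the gene windows and minimum, and the scaling. Counts were tabulated with pandas 2.3.3 and numpy 2.4.6 in Python 3.11.15, intervals came from scipy 1.17.1 and plots from matplotlib 3.10.9.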

Additional observations from a re-analysis of the deposited data

Results flagged for a closer look

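In 2 places there was signal outside the antibodies and genes that the comparison is about. Gata1-open cells, which came from females, had 1968 fragments aligned to chromosome Y, and the depth-matched closed cells had 1803. Before position 90 Mb of that chromosome there were only 7 and 4. In the antibody library, 3522 tags of open cells and 3626 of the drawn closed cells matched no antibody. Over all kept cells there were 15768 such tags, 12.1% of all tags.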

How the results depend on the processing

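Over 13 alternatives on a ratio scale, CD274 lay below 0 (-0.48 to -0.016), as did CD201 (-0.54 to -0.16), and MERTK lay above 0 (0.0031 to 0.39). Of the 12 with an interval, it held 0 in 1 for CD274 (50 or more tags, -0.082 to 0.051), 5 for CD201 and 6 for MERTK. The cut at 50 tags selects cells largely on CD274, which gave most tags. Differences of centred log ratios, on another scale, had the same signs. Of 89 ratios and counts of genes in the main comparisons, 48 stayed within the counting interval of the reported value (for a count of genes, within 1.5 times it), 40 moved further and 1 reversed. The causes were not tested. In all, 4 alternatives were chosen after seeing the data: exactly 1 fragment, 2 or more fragments crossed with peak share, matching on unmatched tags, and leaving out the deepest cell. Matching on depth and peak share gave log2 ratios of -0.081 for CD274, -0.049 for all tags and 0.10 for RNA UMIs. With 2 or more Gata1 fragments, where open cells remained deeper than their closed cells, these were -0.48, -0.33 and 0.20. There CD357 turned to 0.0041, and 17 genes were higher and 16 lower of 1685. Crossed with peak share the same ratios were -0.38, -0.21 and 0.21, and CD357 was 0.22. With exactly 1 fragment they were -0.084, -0.071 and 0.090, and MERTK was 0.0031. With 50 or more tags, which left 78 pairs, CD274 was -0.016, CD201 -0.16, CD357 -0.55, CD106 -0.76, tags -0.082, RNA UMIs -0.027, RNA genes -0.024, Csmd1 -0.057 and Negr1 -0.057, with 2 genes higher and 1 lower of 163. Open within 1 kb of a Gata1 start gave MERTK 0.028, RNA UMIs 0.092, Rp1l1 0.18, and 18 genes higher and 26 lower of 5213. Without excess overlaps CD201 was -0.17, CD68 0.58, CD106 0.37, tags -0.095, RNA UMIs 0.10 and Csmd1 -0.050. Without the deepest 5% RNA UMIs were 0.048, Csmd1 -0.072, and 21 genes were higher. RNA UMIs were 0.074 and CD163 1.58 with 50 bins, and RNA UMIs were 0.12 with matching on unmatched tags, where all tags were -0.099. Per sum of the other antibodies, CD274 was -0.14, CD357 0.049 and CD61 0.12, where the sum for CD357 and CD61 is mostly CD274. Weighting all closed cells gave 11 genes higher and 20 lower, and transcript starts alone 20 lower of 8431. With 200 or more fragments 238 were higher and 244 lower of 18022, and with 1000 or more 0 and 0 of 6270. Scales of the antibodies have no value for tags or RNA, and of the added alternatives only the one without the deepest cell was run over genes. No paired analysis was possible because both groups came from 1 library and share fewer than 2 replicate numbers.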
